A study of Mus musculus with 8 samples.

Results

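The IL-4 receptor, STAT6 and a set of response genes, 8 of the 32285 genes counted in mouse spleen cells, are described here in B, T and myeloid cells by genotype and cell sort. They were taken by gene symbol from the deposited feature tables, and all 8 were found once. They are Il4ra (the IL-4 receptor alpha chain), Stat6 (the transcription factor that the receptor activates), Fcer2a (CD23, the low-affinity IgE receptor), Il4i1 (a secreted amino acid oxidase induced by IL-4), Cish and Socs1 (feedback inhibitors of cytokine receptors), Nfil3 (a basic leucine zipper transcription factor) and Bcl2l1 (Bcl-xL, a survival protein). The set was proposed with results of these data in view, so its cKO and control values are given as a description with no p.

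IL-4 is made mainly by T helper cells, basophils and mast cells, and B cells are among its main targets. It binds IL-4Rα, which pairs with the common gamma chain in lymphocytes or with IL-13Rα1 in other cells. The JAK kinases bound to these chains phosphorylate the receptor, STAT6 docks there, is phosphorylated in turn, and enters the nucleus. In B cells the pathway is known for CD23 and MHC class II expression and for class switching to IgG1 and IgE. STAT5, driven by IL-2, IL-7 and related cytokines, also acts on several of these genes, Cish among them.

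Single-cell RNA was measured in 8 spleen libraries from C57BL/6J mice 2 months old, 2 libraries in each of 4 groups. The cKO mice carried Eif3e fl/fl, Cγ1Cre and Rosa26-YFP LSL, and the controls carried Cγ1Cre and Rosa26-YFP LSL, so both genotypes held the Cre and the reporter. Cγ1Cre is made from the Ig γ1 locus, so the recombinase acts in B cells after activation, and it switches on YFP. Each genotype was measured as total splenocytes (control total, cKO total) and as sorted YFP+ cells (control YFP+, cKO YFP+), in batch 1 and batch 2, with 2 to 3 mice pooled in each library. With 2 libraries in a group, each standard error given comes from a fit that draws a gene's variance towards that of other genes. It is therefore not the spread of that gene's own libraries alone. Pools of mice and batches are not separated in it.

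The libraries held 71894780 to 105224903 UMIs (unique molecular identifiers, 1 for each captured RNA molecule) and 9276 to 11652 cells after filtering, with a median of 5250 to 6810.5 UMIs in a cell. Any pair of libraries shared 51 to 102 cell barcodes. Eif3e, the targeted gene, had 277 and 286 CPM (its UMI count scaled for depth) in activated B-like cells of control YFP+ libraries and 144 and 164 CPM in those of cKO YFP+ libraries. In resting B-like cells it was not lower in cKO, where the control YFP+ libraries gave 212 and 265 CPM and the cKO YFP+ libraries 291 and 365 CPM. Germinal centre B-like cells had 265 and 297 CPM in control YFP+ and 267 and 305 CPM in cKO YFP+. Why the classes differed, and whether the counted 3′ tags lie outside the deleted part, was not tested. Below, "cKO" names the libraries labelled so. Xist, which female cells express, stood at 524 CPM in cKO total 1 and 638 CPM in cKO YFP+ 1 and at no more than 0.348 CPM in the other 6 libraries, while the Y-linked Ddx3y was present in all 8, so both cKO libraries of batch 1 held RNA of both sexes. Without cKO total 1, 30 of 32 fold changes of the 8 genes in total cells kept their sign, and without cKO YFP+ 1 all 16 in YFP+ cells did. The largest shift in total cells was 0.92 on the log2 scale (Cish in resting B-like cells), and the 2 signs that turned were those of Fcer2a in resting B-like and Il4ra in myeloid cells.

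All 8 genes had UMIs in all 4 groups. Totals over the 8 libraries ran from 7493 UMIs for Bcl2l1 to 125555 for Fcer2a. Of them, 59.0% (Bcl2l1) to 96.9% (Fcer2a) lay in B-lineage cells, counted here without plasma cell-like cells. By GENCODE vM21 on GRCm38, the build named in the submitters' processing notes, the genes lie on 7 chromosomes: Il4ra (ENSMUSG00000030748) at chr7:125552120-125579474 on the plus strand, Stat6 (ENSMUSG00000002147) at chr10:127642986-127660957 on the plus strand, Fcer2a (ENSMUSG00000005540) at chr8:3681737-3694175 on the minus strand, Il4i1 (ENSMUSG00000074141) at chr7:44816387-44840809 on the plus strand, Cish (ENSMUSG00000032578) at chr9:107296026-107302784 on the plus strand, Socs1 (ENSMUSG00000038037) at chr16:10782240-10785536 on the minus strand, Nfil3 (ENSMUSG00000056749) at chr13:52967209-52981073 on the minus strand, and Bcl2l1 (ENSMUSG00000007659) at chr2:152780668-152831728 on the minus strand. Il4ra and Il4i1 share chromosome 7, far apart.

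Promoters are shown because the genes are grouped by a transcription factor with a known DNA motif. STAT6 prefers TTC and GAA with 4 bases between them (TTCNNNNGAA), the other STATs prefer 3 bases (TTCNNNGAA), and GAAANNGAAA is read by interferon regulatory factors. RefSeq promoter windows (GRCm38.p6, from 250 bases before to 50 bases after a transcription start) were searched on both strands for all 3. Over 32851 promoters, 6.95%, 8.30% and 3.44% held each motif in that order. A match is a string of letters in this window, not a bound site. The sequences below read 5′ to 3′ on the gene's strand, with motif letters in capitals.
Fcer2a, second RefSeq start, upstream bases chr8:3690862-3691111 (minus), TTCNNNNGAA in capitals: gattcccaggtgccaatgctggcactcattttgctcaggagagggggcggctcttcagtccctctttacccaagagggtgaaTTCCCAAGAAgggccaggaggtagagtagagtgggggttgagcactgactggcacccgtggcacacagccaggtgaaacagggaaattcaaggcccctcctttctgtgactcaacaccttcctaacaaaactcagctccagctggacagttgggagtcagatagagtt
Cish, around the start, chr9:107296656-107296683 (plus), both TTCNNNGAA matches in capitals: gttTTCCTGGAAagTTCTTGGAAatctg
Socs1, upstream bases chr16:10785537-10785786 (minus), overlapping GAAANNGAAA matches in capitals: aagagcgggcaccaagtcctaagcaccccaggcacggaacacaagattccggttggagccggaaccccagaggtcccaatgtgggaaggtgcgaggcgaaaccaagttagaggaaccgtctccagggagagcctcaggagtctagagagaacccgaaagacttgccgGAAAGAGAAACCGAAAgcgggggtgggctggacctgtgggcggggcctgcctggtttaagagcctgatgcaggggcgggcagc
Bcl2l1, first RefSeq start, chr2:152828476-152828501 (minus), TTCNNNNGAA in capitals: agtgctttTTCTTCAGAAtcctgctc
Nfil3, upstream bases chr13:52981074-52981289 (minus), no match: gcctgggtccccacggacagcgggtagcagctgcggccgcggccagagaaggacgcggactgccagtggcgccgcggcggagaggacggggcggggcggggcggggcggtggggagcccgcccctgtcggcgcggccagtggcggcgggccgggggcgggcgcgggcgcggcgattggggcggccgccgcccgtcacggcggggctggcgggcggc
Il4ra, upstream bases chr7:125552021-125552119 (plus), no match: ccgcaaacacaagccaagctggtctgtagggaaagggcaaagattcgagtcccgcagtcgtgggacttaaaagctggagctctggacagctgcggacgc
Fcer2a and Bcl2l1 each held the 4-base form in 1 of their 3 promoters, Cish held the 3-base form at 2 adjoining places, and Socs1 held the overlapping interferon regulatory factor form. The windows of Il4ra, Stat6, Il4i1 and Nfil3 held none of the 3 strings.

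Levels were compared in 6 cell sums, each the UMIs of a cell class added up per library: resting B-like cells of total and of YFP+ libraries, activated B-like cells of YFP+ libraries, and CD4 T, CD8 T and myeloid cells of total libraries. Values within a sum are scaled CPM (CPM after TMM scaling by edgeR), log2 fold changes are cKO over control with their standard error (SE), and n = 2 libraries per genotype throughout. The tables hold 3′ tags, so levels are compared between samples and classes for 1 gene, not between genes. A sum cannot separate fewer cells of a type from less RNA per cell. In resting B-like cells of total libraries the libraries of the genotypes did not overlap for 7 of the 8 genes, 5 higher in cKO (15.6% of all genes tested were) and 2 lower (15.2%). The YFP+ resting sum had 5 higher (19.4% of all genes) and 1 lower (18.1%), the YFP+ activated sum 8 higher (29% of all genes) and 0 lower (29.7%), CD4 T cells 4 higher (22.1%) and 1 lower (19.9%), CD8 T cells 5 higher (13.8%) and 0 lower (13.3%), and myeloid cells 2 higher (12.4%) and 0 lower (11%). Of the 8 genes, edgeR's test at an adjusted p of 0.05 called 1 in the total resting sum (0.133% of all genes tested), 2 in YFP+ resting (0.441%), 7 in YFP+ activated (14.9%), 2 in CD4 T (3.77%), and 0 in CD8 T (0.106%) and myeloid cells (0%). With the batch as a replicate block the counts were 3 (17% of all genes tested), 4 (15.8%), 7 (29.8%), 4 (26.6%), 4 (6.5%) and 1 (0.655%). Since the genes were chosen on these contrasts, nothing is read from any of them. In myeloid cells, 255 of 11299 genes had an unadjusted p under 0.05, edgeR called none after adjustment and DESeq2 called 5.

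The resting B-like class was not made of the same cells in both genotypes. Of 3 clusters with resting B markers, cluster 1 held 92.9% and 96.7% of resting B-like cells of control total libraries but 5.83% and 5.70% of those of cKO total libraries, most of which fell into clusters 0 and 2. In YFP+ libraries cluster 0 made up 0.39% and 0.38% of the control cells and 55.9% and 70.9% of the cKO cells. Every resting B-like comparison below is also a comparison of these clusters. For the 8 genes, values within cluster 1 alone are given beside it, except for Cish, which had no fitted value there, and for the pathway genes the counts of calls there are given. Cluster 1 of cKO was small, with 252 and 276 cells in total and 97 and 57 in YFP+ libraries. CD4 T cells held 3.11% and 1.39% follicular helper-like cells in control total and 26.6% and 35.4% in cKO total, and CD8 T cells held 20.9% and 25.9% memory-like cells against 76.9% and 87.6%. Activated B-like cells of YFP+ libraries had a median of 11663.5 and 8163 UMIs per cell in control and 18041 and 18093 in cKO. Their B-lineage markers summed to 4109 and 4730 CPM in control and 2778 and 3158 CPM in cKO. Whether this class held like cells in both genotypes was not tested.

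**Figure D1:**
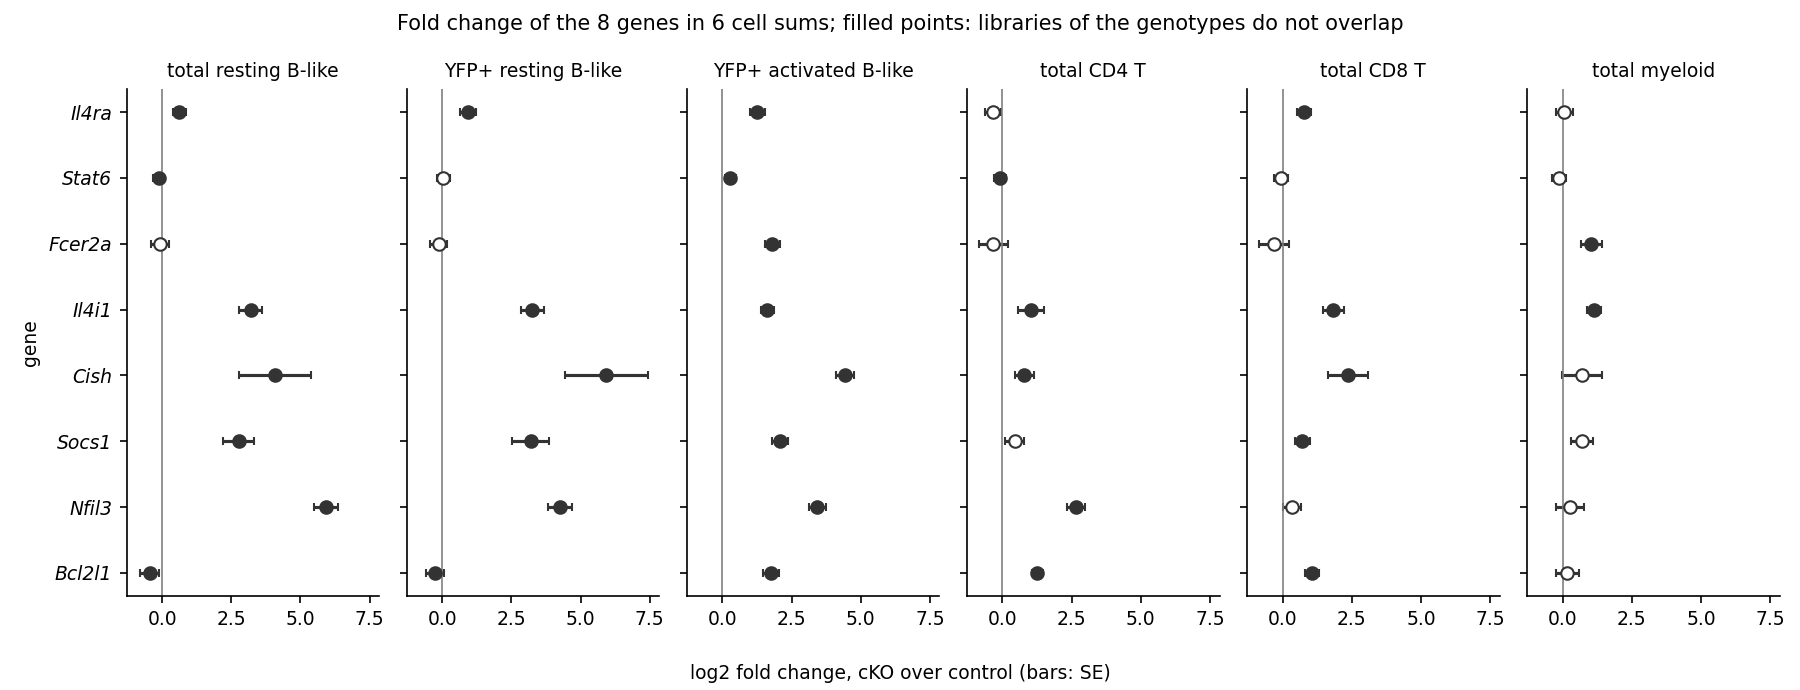
Log2 fold change (cKO over control, horizontal axis, bars are SE, n = 2 libraries per genotype) of the 8 genes in 6 cell sums. Filled points mark genes whose control and cKO libraries did not overlap. In YFP+ activated B-like cells all 8 points are filled and to the right of 0, from 0.29 for Stat6 to 4.43 for Cish. In that sum 29% of all genes tested were higher and 29.7% lower in cKO without overlap. The 8 genes were chosen with results of these data in view.

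Il4ra, the receptor chain that sets whether a cell can sense IL-4, was highest in naive CD4 T-like cells among 17 classes of control total cells, at 130.4 and 96.1 CPM, ahead of resting B-like cells at 79.7 and 79.6 CPM. Plasma cell-like cells were lowest at 8.39 and 3.76 CPM. The ranges of both batches overlapped for 13 of the 16 pairs of neighbours in that order, but both ends stood apart from the next class. Follicular helper-like cells of cKO total were low, at 8.97 and 11.1 CPM beside 12.3 and 9.04 CPM in plasma cell-like cells, against 193 and 166 CPM in naive CD4 T-like cells of the same libraries. The receptor chain thus spanned more than a 10-fold range within CD4 T cells.

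In resting B-like cells Il4ra stood at 75.8 and 78.2 scaled CPM in control total and 100.5 and 137 in cKO total (log2 fold change 0.62 ± 0.24). In the YFP+ libraries it was 69.6 and 64.5 in control and 98.6 and 156 in cKO (0.92 ± 0.30). In activated B-like cells of YFP+ libraries it was 21.8 and 19.5 in control and 35.9 and 64.5 in cKO (1.27 ± 0.28). Both cKO libraries were above both control libraries in all 3 sums, with batch 2 the higher of the cKO libraries each time; without cKO YFP+ 2 the differences were 0.56 and 0.80. Within cluster 1 alone the differences were -0.08 in total and 0.18 in YFP+ cells. Cluster 0, which held mostly cKO cells, had 122 and 157 CPM in cKO total.

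In T cells the Il4ra values depended on the class. In CD4 T cells as a whole they overlapped, with 117 and 87.0 scaled CPM in control and 95.1 and 64.6 in cKO (-0.35 ± 0.29). The parts of that sum went apart: naive CD4 T-like cells had more in cKO (difference 0.72), while regulatory T-like cells had 91.5 and 62.8 CPM in control and 54.0 and 46.4 CPM in cKO. In CD8 T cells Il4ra was 77.6 and 63.1 in control and 117 and 124 in cKO (0.77 ± 0.25), with a difference of 0.50 in naive and 0.77 in memory-like CD8 T cells. Myeloid cells overlapped at 43.3, 27.8, 40.9 and 33.1 in control 1, control 2, cKO 1 and cKO 2.

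Stat6, the signal transducer itself, had the narrowest range of differences of the 8 genes. It stood at 59.3 and 61.5 scaled CPM in control and 53.9 and 57.3 in cKO total resting B-like cells (-0.12 ± 0.19). In YFP+ resting B-like cells the libraries overlapped at 53.6, 51.0, 50.8 and 56.5 (0.04 ± 0.23), and in YFP+ activated B-like cells they were 30.7 and 32.5 in control and 41.9 and 35.3 in cKO (0.29 ± 0.19). Within cluster 1 alone the resting B-like differences were 0.03 in total and 0.19 in YFP+ cells. No absolute log2 fold change of Stat6 exceeded 0.29 in the 6 sums. For YFP+ resting B-like cells, plain CPM put both cKO libraries below the controls. The median log2 fold change of all genes there was -0.11 with library totals alone and 0.02 with TMM scaling. Across control total classes Stat6 was highest in monocyte or macrophage-like cells (93.1 and 79.6 CPM), followed by NK-like cells (67.0 and 68.0 CPM), and lowest in plasma cell-like (13.3 and 11.3 CPM) and germinal centre B-like cells (20.8 and 26.1 CPM). The same classes were at both ends in cKO total.

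Fcer2a encodes CD23, an IL-4-induced IgE receptor of mature B cells. Resting B-like cells did not separate by genotype, with 285 and 465 scaled CPM in control total against 306 and 407 in cKO total (-0.07 ± 0.32) and 253 and 425 in control YFP+ against 292 and 326 in cKO YFP+ (-0.13 ± 0.32). Within cluster 1 alone the differences were -0.20 and -0.16. Activated B-like cells of YFP+ libraries did, at 66.2 and 112 in control and 261 and 366 in cKO (1.81 ± 0.28, or 2.29 without control YFP+ 2). Batch 2 was the higher in each of these 6 pairs of libraries. Germinal centre B-like cells ran from 39.3 and 76.0 CPM in control YFP+ to 90.0 and 115 CPM in cKO YFP+. Outside B cells, Fcer2a stood at 2.14, 6.66, 2.56 and 4.14 scaled CPM in CD4 T cells, where the 6 B-lineage markers summed to between 1.13% and 1.52% of their level in resting B-like cells of the same library. In myeloid cells Fcer2a was 14.6 and 16.8 in control and 43.1 and 21.6 in cKO (1.03 ± 0.37, or 0.45 without cKO total 1), and the B markers stood at 6.39% to 16.2% of their resting B level, highest in cKO total 1. That share of the resting B level was at least as large as the Fcer2a measured in T and myeloid cells.

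Il4i1 encodes an oxidase that breaks down aromatic amino acids and is induced by IL-4 in B cells. It was 35.6 and 46.8 scaled CPM in control and 246.98 and 509 in cKO total resting B-like cells (3.20 ± 0.40, and 2.58 to 3.62 over the other fits, cell filters, clustering and left-out libraries). YFP+ resting B-like cells had 49.1 and 59.7 in control and 325 and 718 in cKO (3.26 ± 0.43, or 2.58 without cKO YFP+ 2). YFP+ activated B-like cells had 64.5 and 95.3 in control and 208 and 286 in cKO (1.63 ± 0.25). All 3 sums were separate, and in each genotype batch 2 was the higher. Cell by cell, after each resting B-like cell was thinned to 2000 UMIs, 7.03% (Wilson 95% interval 6.17 to 8.01) and 8.40% (7.56 to 9.32) of control total cells held an Il4i1 UMI, against 31.5% (30.2 to 33.0) and 45.9% (44.4 to 47.3) of cKO total cells. Shallower cells were left out, 109 and 100 of control and 116 and 53 of cKO, and without thinning the shares were 16.1%, 16.4%, 52.9% and 70.3%. These intervals cover counting error only. Naive CD4 T-like cells of the same 4 libraries, which should lack the gene, gave 0.407% to 0.864% after thinning, at a median depth of 5827 to 7097 UMIs against 4190 to 6043 in resting B-like cells.

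The Il4i1 level in cKO was highest in the clusters that held mostly cKO cells, and cluster 0 held only 8 and 1 control total cells. Cluster 0 had 420.3 and 719 CPM in cKO total, and cluster 2 had 138 and 252 CPM, against 64.2 and 94.1 CPM in cluster 1 of the same libraries and 36.0 and 46.9 CPM in cluster 1 of control total. Within cluster 1 the difference was 0.94 in total and 0.83 in YFP+ cells. The gene was higher in both cKO libraries outside B cells too. Myeloid cells had 56.6 and 66.8 scaled CPM in control and 125 and 146 in cKO (1.13 ± 0.26), and a B cell share read from the B markers would give 4.43 and 3.04 CPM of that in control and 39.98 and 40.90 CPM in cKO. Monocyte or macrophage-like cells made up 31.9% and 64.1% of myeloid cells in control and 41.1% and 53.2% in cKO. The difference was 2.30 in these and 0.66 in conventional dendritic-like cells, where the libraries overlapped at 78.6 and 159 CPM in control and 151 and 231 CPM in cKO. In monocyte or macrophage-like cells the B markers summed to 2147 and 563 CPM in control and 2375 and 1053 CPM in cKO. Conventional dendritic-like cells had 633 and 466 CPM of them in control and 443 and 402 CPM in cKO. Resting B-like cells of cKO total had 7939 and 8186 CPM. How much of the 2.30 came from B cell RNA was not tested. In CD4 T cells Il4i1 was 2.04 and 2.27 in control and 2.67 and 6.32 in cKO (1.03 ± 0.46, or 0.28 without cKO total 2), where the same B cell share would give 0.42, 0.72, 2.92 and 6.20 CPM. The part of B cell RNA in these sums was not tested further.

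**Figure D2:**
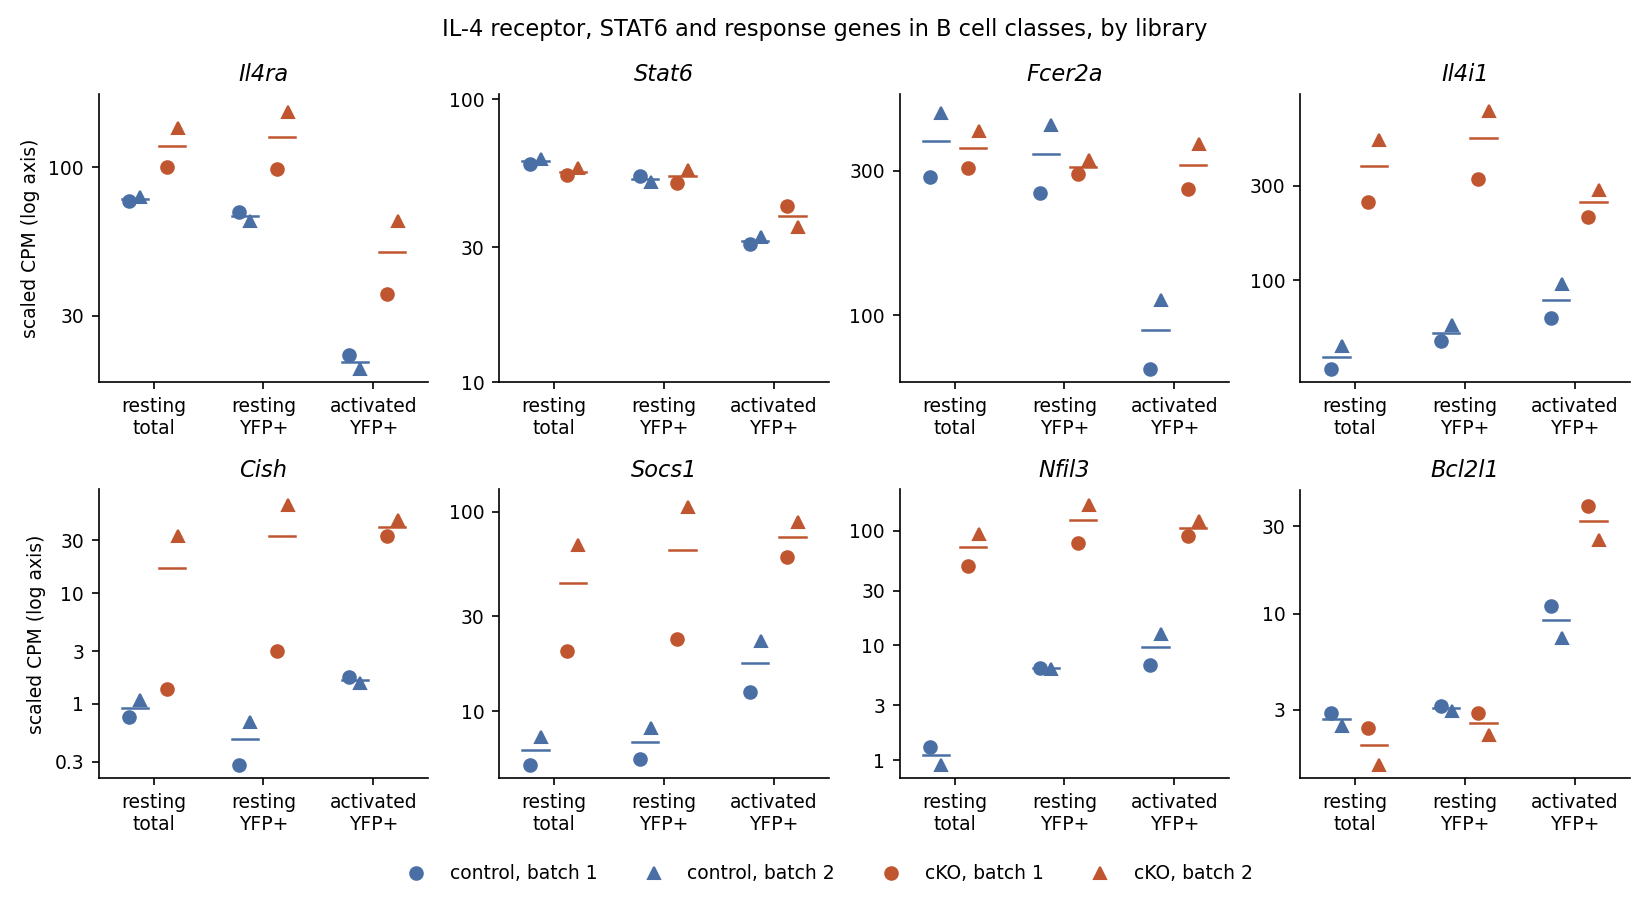
Scaled CPM (log axis) of each gene in resting B-like cells of total and YFP+ libraries and activated B-like cells of YFP+ libraries, 1 point per library (circle batch 1, triangle batch 2) with the mean as a line. Il4i1 and Nfil3 lie higher in cKO in all 3 sums, Stat6 hardly moves, and Cish in resting B-like cells is far higher in cKO of batch 2 than in cKO of batch 1.

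Cish, an SH2 protein that dampens STAT5 signalling, had its largest difference in resting B-like cells in batch 2. Control total had 0.766 and 1.08 scaled CPM, cKO total 1 had 1.35 and cKO total 2 had 32.7 (4.08 ± 1.29, or 0.51 without cKO total 2). YFP+ resting B-like cells had 0.279 and 0.684 in control, 3.03 in cKO YFP+ 1 and 62.8 in cKO YFP+ 2 (5.93 ± 1.503, or 2.45 without cKO YFP+ 2). In activated B-like cells of YFP+ libraries both cKO libraries were alike, at 33.1 and 45.9 against 1.74 and 1.54 in control (4.43 ± 0.31). Between these YFP+ sums, the batch gap of cKO thus lay in resting and not in activated B-like cells. The unnamed B-lineage cluster described below, which was in neither sum, showed a batch gap too. After thinning, 5.43% (interval 4.02 to 7.32) of its cells held a Cish UMI in cKO YFP+ 1. In cKO YFP+ 2 the share was 15.9% (13.8 to 18.3). In activated B-like cells of total libraries, 4.44% held a Cish UMI in cKO total 1 and 11.6% in cKO total 2. Their median depth was 8513 and 8425 UMIs. After thinning the shares were 0.783% and 1.62%, and their intervals overlapped. Cluster 0 showed the batch gap of resting B-like cells, with 2.46 and 56.6 CPM in cKO total and 3.87 and 71.3 CPM in cKO YFP+.

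Among all classes Cish was highest in regulatory T-like cells of both genotypes, at 106 and 162 CPM in control total and 96.0 and 182 CPM in cKO total, which overlap. CD4 T cells as a whole had 23.0 and 33.4 scaled CPM in control and 33.7 and 63.3 in cKO (0.78 ± 0.35, or 0.25 without cKO total 2), and naive CD4 T-like cells had a difference of 1.10. CD8 T cells had 3.63 and 5.19 in control, 5.79 in cKO total 1 and 41.5 in cKO total 2 (2.37 ± 0.73, or 0.37 without cKO total 2), with a difference of 0.55 in naive and 1.94 in memory-like CD8 T cells. cKO total 2 was the highest library in each of these T cell sums, as in resting B-like cells. Myeloid cells overlapped, at 5.9998, 2.99, 2.69 and 13.7.

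Socs1 encodes an inhibitor of JAK kinases that limits IL-4, interferon and gamma chain cytokine signals. Resting B-like cells had 5.36 and 7.43 scaled CPM in control total and 20.03 and 67.9 in cKO total (2.77 ± 0.55), and 5.77 and 8.21 in control YFP+ against 23.0 and 106 in cKO YFP+ (3.20 ± 0.67). Without cKO total 2 the first difference was 1.63, and without cKO YFP+ 2 the other was 1.71. Within cluster 1 alone they were 1.04 and 0.93, the latter on 4 and 5 UMIs in cKO. Activated B-like cells of YFP+ libraries had 12.4 and 22.5 in control and 59.6 and 89.1 in cKO (2.09 ± 0.30). Both cKO libraries were above both controls in each B cell sum, with batch 2 the higher each time. Interferon-response B-like cells had 7.44 and 27.1 CPM in control total and 47.1 and 128 CPM in cKO total.

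Regulatory T-like cells carried the highest Socs1 of the control total classes, at 145 and 165 CPM, and had 71.1 and 117 CPM in cKO total. This is the reverse order of that in B cells, and the libraries did not overlap. In CD4 T cells as a whole they overlapped, at 64.9, 77.1, 66.6 and 127 scaled CPM (0.45 ± 0.34, or -0.09 without cKO total 2). CD8 T cells had 46.9 and 50.2 in control and 63.0 and 96.8 in cKO (0.72 ± 0.28), with a difference of 0.22 in naive and 0.47 in memory-like CD8 T cells. Myeloid cells had 14.1, 15.3, 15.1 and 34.0, with 1 library high.

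Nfil3, also called E4BP4, is known for its part in NK cell development and in class switching to IgE. In control total resting B-like cells it was near the lower end of all classes, at 1.30 and 0.907 scaled CPM, against 49.1 and 94.1 in cKO total (5.91 ± 0.43). YFP+ resting B-like cells had 6.42 and 6.27 in control and 78.4 and 167 in cKO (4.26 ± 0.42, and 3.61 to 4.67 over the other fits, cell filters, clustering and left-out libraries), and YFP+ activated B-like cells had 6.75 and 12.6 in control and 89.1 and 121 in cKO (3.43 ± 0.30). The genotypes were far apart in each, although the controls of the 2 sorts differed: YFP+ resting cells of control held more than total ones. After thinning to 2000 UMIs, 0.237% and 0.183% of control total and 8.22% and 13.6% of cKO total resting B-like cells held an Nfil3 UMI (without thinning 0.652%, 0.407%, 17.9% and 32.9%). Naive CD4 T-like cells of the same libraries gave 0.102% and 0.434% in control and 1.02% and 0.345% in cKO after thinning, but they are no background for Nfil3, which CD4 T cells also hold. Within cluster 1 the difference was 3.56 in total and 1.24 in YFP+ cells, the latter on 9 and 2 UMIs in cKO.

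Other classes of B cells and plasma cell-like cells showed the Nfil3 difference as well. B1-like cells had 4.43 and 4.45 CPM in control total and 32.3 and 85.7 CPM in cKO total. Germinal centre B-like cells had 4.16 and 3.73 CPM against 21.5 and 34.1 CPM, and plasma cell-like cells 6.99 and 6.58 CPM against 18.4 and 19.0 CPM. None of these overlapped. In CD4 T cells Nfil3 was 9.43 and 6.66 scaled CPM in control and 40.7 and 63.7 in cKO (2.66 ± 0.31), and the difference stayed at 2.57 without follicular helper-like cells and was 1.10 in naive CD4 T-like cells. The B cell share of that sum would give no more than 1.15 CPM. CD8 T cells (5.72, 4.04, 5.45 and 6.94) and myeloid cells (32.9, 70.7, 36.9 and 87.4) overlapped between genotypes. In control total the gene was highest in monocyte or macrophage-like cells, at 51.7 and 101.1 CPM, and NK-like cells followed at 46.0 and 42.1 CPM.

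Bcl2l1 encodes Bcl-xL, which holds back the mitochondrial path to cell death. Its differences were positive in activated B and T cells and small and negative in resting B cells. In resting B-like cells it was low in every library, with 2.89 and 2.44 scaled CPM in total libraries of control against 2.38 and 1.49 in those of cKO (-0.45 ± 0.34). The YFP+ libraries gave 3.16 and 2.96 for control against 2.89 and 2.18 for cKO (-0.27 ± 0.34). The gap between the nearest libraries there was under 0.1 scaled CPM, and 15.2% and 18.1% of all genes were lower in cKO without overlap in these sums. In cluster 1 alone the gene had 47 and 41 UMIs in control total against 2 and 0 in cKO total, and 31 and 23 in control YFP+ against 1 and 0 in cKO YFP+, too few in cKO for a fold. YFP+ activated B-like cells had 11.1 and 7.43 in control and 38.7 and 25.4 in cKO (1.76 ± 0.29). This difference ran from 0.96 to 2.09 over the other fits, cell filters, clustering and left-out libraries. CD4 T cells had 13.7 and 12.8 in control and 32.0 and 32.3 in cKO (1.27 ± 0.21), and CD8 T cells 10.2 and 12.9 against 22.6 and 26.0 (1.06 ± 0.24). In naive CD4 T-like cells alone the difference was 1.49, and in naive and memory-like CD8 T cells it was 0.50 and 0.44. Regulatory T-like cells were highest in both genotypes, at 35.8 and 33.0 CPM in control total and 62.1 and 57.0 CPM in cKO total, and myeloid cells overlapped (14.6, 6.89, 12.9 and 11.5 scaled CPM).

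A B-lineage cluster led by Tnfsf4 and Fabp5, left unnamed since its best-scoring marker list did not meet the rules for a name, held 741 and 1032 cells in cKO YFP+, 34 and 94 in cKO total and at most 15 in any control library. Clustering did not use the 8 genes. In cKO total this cluster was the highest of 18 classes for Fcer2a (704 and 859 CPM), Il4i1 (685 and 781 CPM) and Nfil3 (121 and 151 CPM). The order for Nfil3 overlapped with the next class, that for Fcer2a and Il4i1 did not. It also held Bcl2l1 at 48.0 and 46.8 CPM and Il4ra at 83.6 and 94.3 CPM. In cKO YFP+ the cluster had 528 and 482 CPM of Il4i1 and 621 and 484 CPM of Fcer2a. Its Eif3e level was 177 and 156 CPM in cKO YFP+ and 267 and 252 CPM in cKO total. Added to the activated B-like sum of YFP+ libraries, it moved the differences to 2.13 for Fcer2a, 2.15 for Il4i1 and 1.33 for Bcl2l1.

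**Figure D3:**
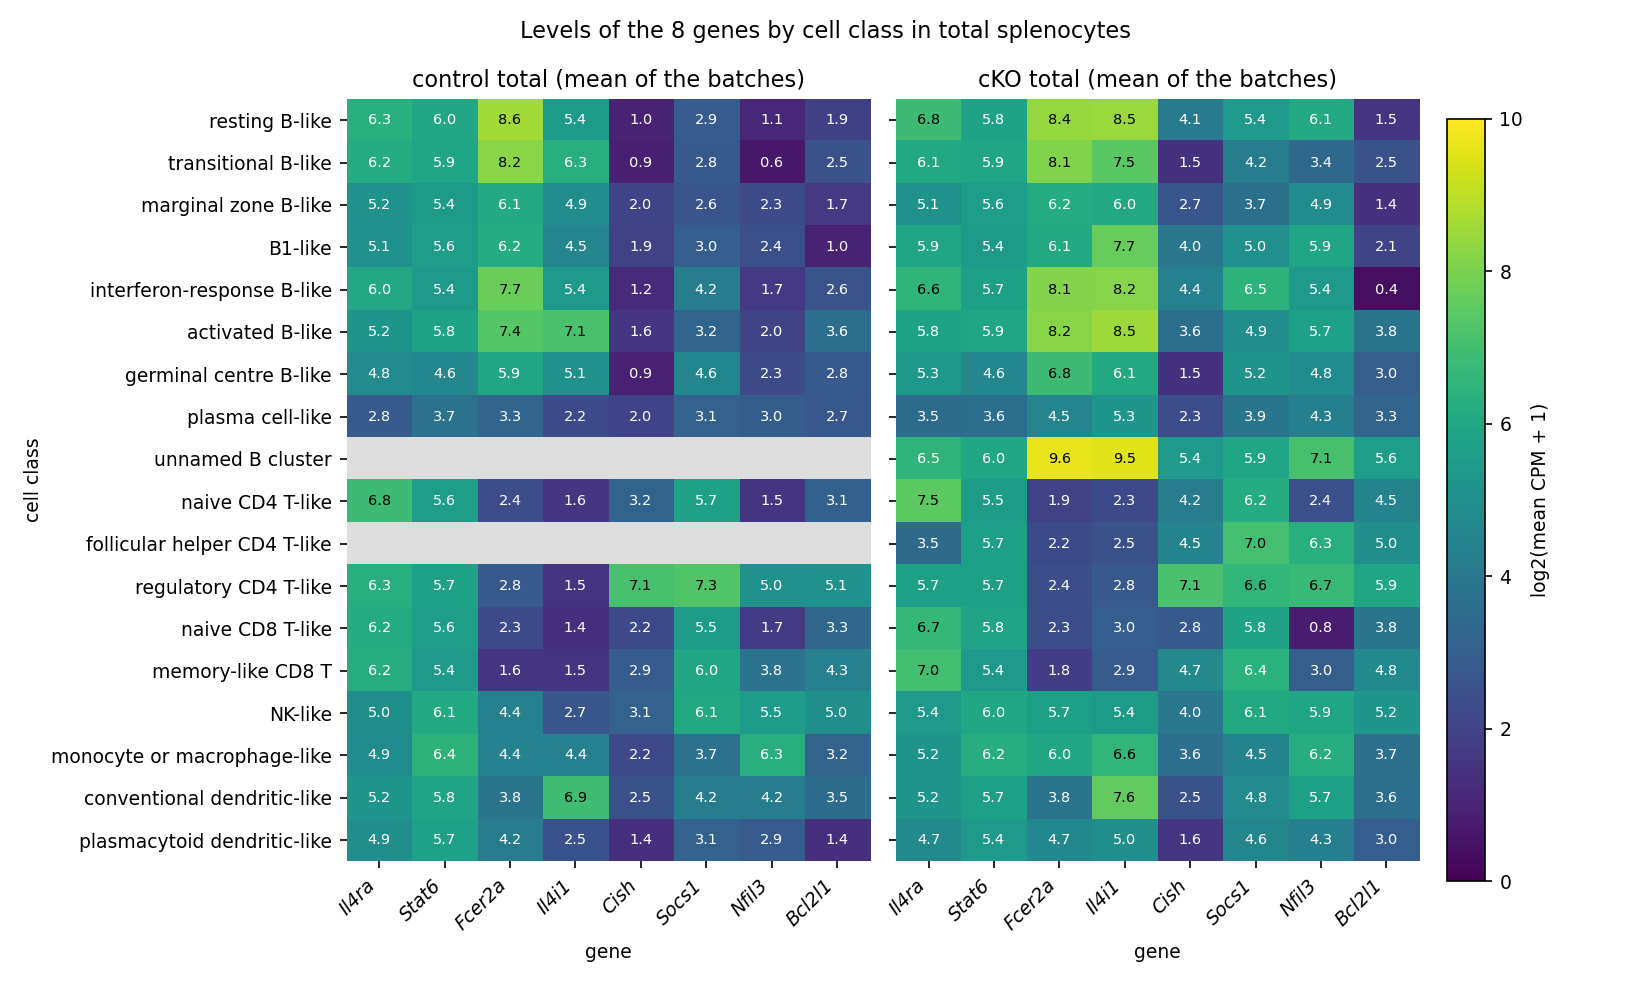
Mean level of the 8 genes, as log2(mean CPM + 1) of the batches, in 18 cell classes of control total and cKO total (grey: under 20 cells in at least 1 library). Il4i1 and Nfil3 are higher in cKO throughout the named B-lineage rows. Stat6 differs between classes but is much alike in both panels, and Cish is highest in regulatory CD4 T-like cells in both.

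The order of classes was the same at the top in both genotypes for Il4ra (naive CD4 T-like), Stat6 (monocyte or macrophage-like), Cish and Bcl2l1 (regulatory CD4 T-like). It differed for the response genes of B cells: Fcer2a was highest in resting B-like cells of control total (299 and 474 CPM) and Il4i1 in activated B-like cells (126 and 149 CPM), and both were highest in the unnamed cluster in cKO. That cluster held 8 and 8 cells in control total, too few to be ranked there. Socs1 led in regulatory T-like cells in control and in follicular helper-like cells in cKO (82.3 and 176 CPM), where all 17 pairs of neighbouring classes overlapped. Follicular helper-like cells numbered 18 in control total 2, so they too were not ranked in control. In control total, overlap of neighbours ran from 9 of 16 pairs for Stat6 and Bcl2l1 to 15 of 16 for Cish, so most places within these orders were not resolved.

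The other 50 genes of the pathway were grouped in 7 lists and tested with edgeR, with p adjusted over all genes of a sum. Like the 8 genes, they were chosen with earlier results of these data known, so their counts describe these sums and are no independent evidence of a direction. In total resting B-like cells 0 of 37 tested passed, and their median log2 fold change was 0.00 as for all genes (0.00). With the batch as a replicate block, 18 of the 37 passed, in a fit that called 17% of all genes against 0.133% without the block. In cluster 1 alone 0 of 31 passed, with Pim1 at 1.00, Irs2 at -0.95, Socs3 at 0.87, Pdcd1lg2 at -0.77, Jak3 at 0.45 and Il2rg at -0.13. Pim1, a survival kinase, stood at 61.0 and 77.2 scaled CPM in control and 134 and 185 in cKO (1.21 ± 0.26, adjusted p = 0.204 by edgeR, 1.3e-05 with the block). Irs2, the docking protein that links IL-4Rα to PI3 kinase, was 148 and 95.9 in control and 68.2 and 33.7 in cKO (-1.26 ± 0.38, adjusted p = 0.42, 7.7e-05 with the block). Of the JAK and receptor list, Jak3 had a difference of 0.71 ± 0.23 and Il2rg, the common gamma chain, -0.41 ± 0.24. Socs3 (1.37 ± 0.36) and Socs5 (-0.47 ± 0.28) were nearest to a call among other STAT and SOCS genes, and Pdcd1lg2 (PD-L2, -0.81 ± 0.20) and Tgm2 (0.41 ± 0.46) among the macrophage and dendritic cell genes. Inpp5d (SHIP1) stood at -0.42 ± 0.32, Maf at -0.64 ± 0.23, Gata3 at 0.83 ± 0.50 and Il15 at -1.09 ± 0.48, and Il4 did not exceed 1.80 scaled CPM in any library.

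In YFP+ resting B-like cells 1 of 34 passed (0.441% of all genes did), Ighe, the constant region of IgE, which rose from 0.465 and 0.798 to 8.001 and 12.1 scaled CPM (3.86 ± 0.41, adjusted p = 0.0172 by edgeR), and 12 passed with the block, which called 15.8% of all genes. In cluster 1 alone Ighe had 4 and 3 UMIs in control and 3 and 3 in cKO and was not tested, and 1 of 29 passed, Ighg1, the constant region of IgG1, with 714 and 817 UMIs in control and 13 and 3 in cKO (-1.96 ± 0.44, adjusted p = 0.0114 by edgeR). Immunoglobulin RNA was also found in sums that should lack it: in cKO total, Ighe stood at 5.1 and 25.0 CPM in resting B-like cells, 4.8 and 23.9 in CD4 T, 3.8 and 21.4 in CD8 T and 8.3 and 31.9 in myeloid cells, beside 6928 and 19816 CPM in plasma cell-like cells. Ighg1 had a difference of 2.99 ± 0.43 in total resting B-like cells (adjusted p = 0.0806 by edgeR) and 2.75 within cluster 1 (adjusted p = 0.0756). The part of plasma cell RNA in these values was not tested. The genes nearest to a call in the lists with none were Irs2 (-1.51 ± 0.44), Inpp5d (-0.65 ± 0.30), Il13ra1 (-1.34 ± 0.63), Il2rg (-0.59 ± 0.29), Socs3 (0.97 ± 0.47), Stat5a (0.32 ± 0.24), Maf (-0.77 ± 0.35), Pdcd1lg2 (-0.94 ± 0.22), Klf4 (0.78 ± 0.35) and Il15 (0.37 ± 0.58). Ccr4 had no UMI in either control, which allows up to 0.305 and 0.346 CPM, and stood at 0.917 and 0.971 scaled CPM in cKO.

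YFP+ activated B-like cells had 13 of 37 called (14.9% of all genes were), 6 higher and 7 lower in cKO (18 called with the block, which called 29.8% of all genes). Their median difference was 0.01, against -0.03 over all genes. Of the other STAT and SOCS genes, Stat5a rose from 18.3 and 16.9 to 89.6 and 80.1 scaled CPM (2.26 ± 0.20, adjusted p = 0.000264 by edgeR) and Socs2, an inhibitor induced by STAT5, from 10.5 and 3.84 to 85.0 and 79.0 (3.45 ± 0.33, adjusted p = 0.000375). Socs3 (1.51 ± 0.38) and Batf, a partner of IRF4 in class switching (1.16 ± 0.19), rose as well. Ccr4, the receptor of Ccl17 and Ccl22, had 1 and 1 UMIs in control and 45 and 22 in cKO, and it is among the 6 although it passed the filter on low counts only through cKO. Ighe rose by 3.59 ± 0.75 (adjusted p = 0.0294 by edgeR), a call lost with the block (adjusted p = 0.448). Of the kinases, Tyk2 fell by 1.06 and Jak2 by 0.80, and of the adaptors and phosphatases, Irs2 fell by 1.83, Inpp5d by 0.95 and Ptpn6 (SHP-1) by 0.73. With the unnamed B cluster described above added to the sum, the calls of Tyk2 (-0.86, adjusted p = 0.0535 by edgeR), Jak2 (-0.76, adjusted p = 0.0677) and Ptpn6 (-0.71, adjusted p = 0.0686) were lost and those of the other 4 lower genes were not. Stat4 fell by 1.06, and Cd86, a costimulatory molecule that IL-4 induces, fell from 192 and 183 to 67.5 and 62.0 scaled CPM (-1.53 ± 0.18, adjusted p = 0.000943 by edgeR). So the 12 genes of the B cell response list did not go one way: Batf and Ighe rose, Cd86 fell and the other 9 were not called. Il15 (1.26 ± 0.46), Pdcd1lg2 (-0.49 ± 0.20) and Mrc1 (-1.29 ± 0.54) were the nearest in the lists with no call.

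**Figure D4:**
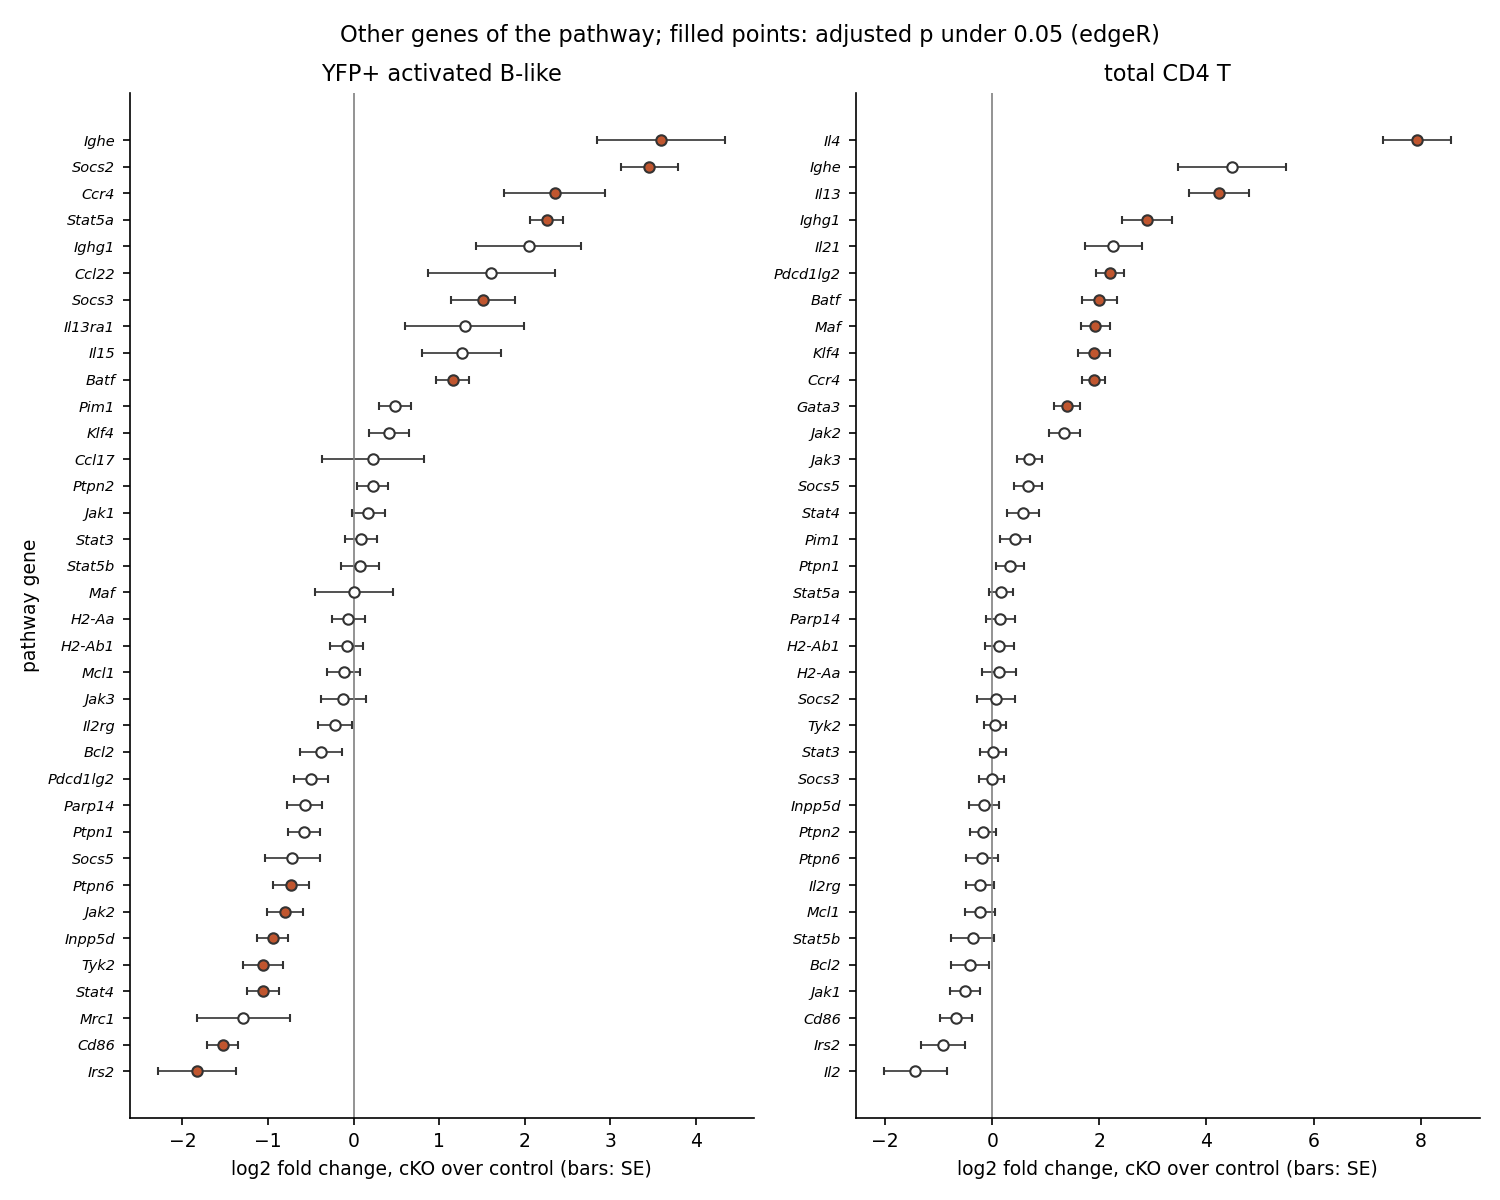
Log2 fold change (cKO over control, bars are SE, n = 2 libraries per genotype) of the pathway genes tested in YFP+ activated B-like and total CD4 T cells (1 gene that was not called is left out), filled where the adjusted p of edgeR was under 0.05. In activated B-like cells filled points lie on both sides of 0, 6 to the right and 7 to the left. In CD4 T cells all 9 lie to the right. Il4 and Il13 in CD4 T cells and Ccr4 in activated B-like cells passed the filter on low counts only through cKO. A call of these could only be higher. Il13, with no UMI in control, and Ccr4, with 1 in each control, are drawn at fitted values that depend on the prior count.

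CD4 T cells of total libraries had 9 of 37 pathway genes called (3.77% of all genes were), all higher in cKO (22 called with the block, which called 26.6% of all genes). Il4, the ligand itself, had 6 and 6 UMIs in control and 1181 and 4868 in cKO, or 0.643 and 0.850 against 126 and 331 scaled CPM. Il13, which shares IL-4Rα, had no UMI in control, which allows up to 0.314 and 0.400 CPM, and 26 and 62 UMIs (2.77 and 4.21 scaled CPM) in cKO. Il4 and Il13 passed the filter on low counts only through cKO, so a call of them could only be higher. Neither call is given a p. Ighg1 needed cKO to pass as well, with 1 control library at the filter level (28 and 5 UMIs in control, 157 and 217 in cKO). These genes are no evidence of a direction among the 9. Of the T cell genes of the IL-4 response, those called were Gata3, the T helper 2 regulator (1.40 ± 0.24), Maf, which activates the Il4 gene (1.93 ± 0.27), and Ccr4 (1.90 ± 0.21), all higher in cKO. Batf (2.00 ± 0.33), Pdcd1lg2 (2.20 ± 0.26), Klf4 (1.90 ± 0.29) and Ighg1 (2.89 ± 0.47) rose too, Ighg1 with the plasma cell limit given above. Jak2 was the nearest uncalled gene, at 159 and 110 in control and 361 and 322 in cKO (1.35 ± 0.29, adjusted p = 0.0552 by edgeR), followed in the lists with no call by Jak3 (0.69 ± 0.23), Irs2 (-0.92 ± 0.41), Ptpn1 (0.33 ± 0.25), Socs5 (0.66 ± 0.26) and Stat4 (0.58 ± 0.30).

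These CD4 T cell calls moved with the make-up of the sum. Without follicular helper-like cells only Ccr4 kept its call (2.07), while Gata3 (1.26), Maf (1.60), Il4 (5.26) and Batf (1.39) kept their direction without passing. In naive CD4 T-like cells alone Gata3 (-0.06) and Maf (-0.36) had the opposite sign. Within regulatory T-like cells Gata3 was 185 and 140 CPM in control total and 368 and 359 CPM in cKO total. Maf there was 277 and 331 CPM against 576 and 646 CPM. In follicular helper-like cells Maf was 817 CPM in control total 1 and 729 and 641 CPM in cKO total. By plain CPM, Il4 stood at 435 and 785 in follicular helper-like, 26.3 and 62.1 in regulatory T-like and 1.3 and 3.6 in naive CD4 T-like cells of cKO total. Follicular helper-like cells held 1116 of 1573 Il4 UMIs of cKO total 1 (70.9%) and 4594 of 6082 of cKO total 2 (75.5%). The control total libraries held 138 and 307 Il4 UMIs in all cells, 4.35% and 1.95% of them in CD4 T cells. The class that held most Il4 was at the lower end of the Il4ra order in cKO total.

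**Figure D5:**
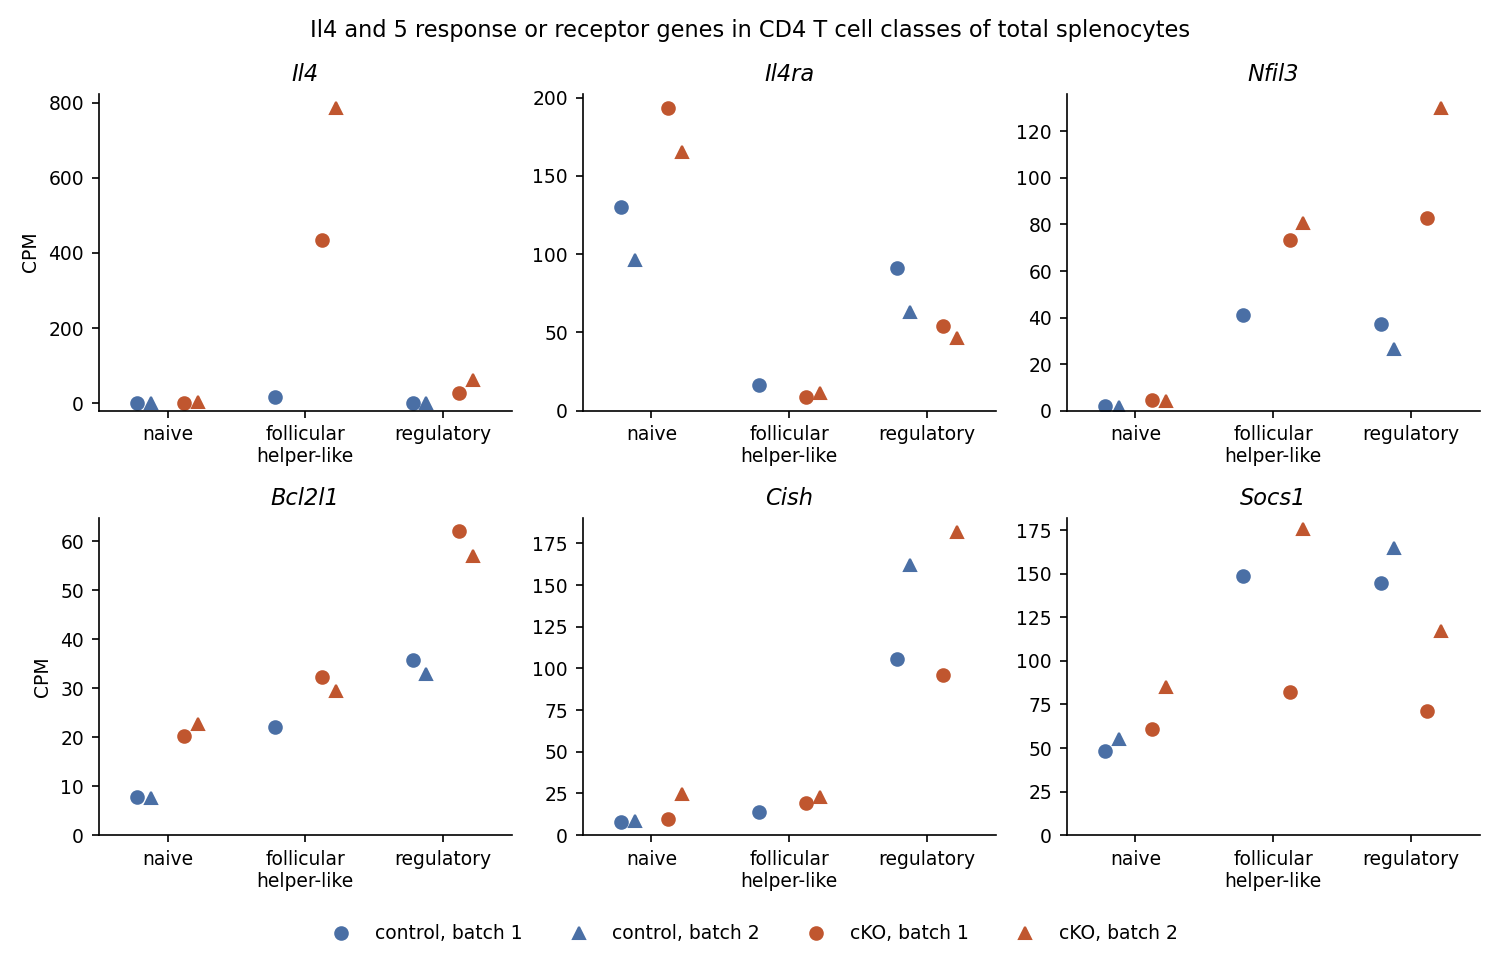
CPM of Il4, Il4ra, Nfil3, Bcl2l1, Cish and Socs1 in naive, follicular helper-like and regulatory CD4 T cells of total libraries, 1 point per library (no point where a library had under 20 cells). Il4 is high in follicular helper-like cells of cKO, at 435 and 785 CPM, where Il4ra is low, at 8.97 and 11.1 CPM.

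In CD8 T cells 1 of 34 pathway genes passed (0.106% of all genes did), Maf, which rose from 3.19 and 4.04 to 20.8 and 41.2 scaled CPM (3.02 ± 0.37, adjusted p = 0.0381 by edgeR), and 6 passed with the block, which called 6.5% of all genes. Within memory-like CD8 T cells, the larger part of that sum in cKO, Maf was 10.3 and 9.61 CPM in control and 26.1 and 44.1 CPM in cKO, and the call was lost (1.80, adjusted p = 0.0998 by edgeR). In naive CD8 T-like cells the Maf libraries overlapped, and 1 pathway gene passed, Ighe, with 0 and 8 UMIs in control and 7 and 12 in cKO. There Ighe passed the filter on low counts only through cKO, so nothing is read from its call. Ighg1 (2.91 ± 0.58), Ighe (4.11 ± 0.94), Stat4 (0.74 ± 0.29), Socs3 (0.38 ± 0.30), Il15 (-0.22 ± 0.43), Il2rg (-0.23 ± 0.27), Jak2 (0.17 ± 0.31), Irs2 (-0.36 ± 0.38), Inpp5d (-0.15 ± 0.27), Pdcd1lg2 (0.47 ± 0.31) and Klf4 (-0.09 ± 0.48) were the nearest in the other lists. In myeloid cells 0 of 42 passed (1 with the block, Ighe, where 0.655% of all genes were called). The alternative activation genes that IL-4 induces in macrophages were measured for 7 of 10: Mrc1, the mannose receptor, was 67.0 and 75.8 scaled CPM in control and 192 and 133 in cKO (1.18 ± 0.29), and Ccl24 rested on cKO total 2, at 1.30, 4.19 and 2.15 in the other libraries and 139 there. Ighe (4.12 ± 0.90), Ccl17 (2.73 ± 0.71), Gata3 (1.33 ± 0.41), Maf (0.66 ± 0.32), Il13ra1 (-0.72 ± 0.25), Jak3 (0.32 ± 0.37), Il4 (0.55 ± 0.43), Il15 (-0.45 ± 0.33), Stat3 (-0.32 ± 0.30), Inpp5d (-0.25 ± 0.41) and Ptpn6 (-0.16 ± 0.31) were among the nearest genes, with an adjusted p of 1 in edgeR for all of them.

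Over 106 sums of at least 50 cells (class by library), the genes most like each of the 8 by Pearson correlation of log2(CPM + 1) were compared among 9972 genes. The sums share libraries and depth, so these values are a description. Fcer2a went with Snx8 (0.91), Ms4a1 (CD20, 0.90) and H2-DMb2 (0.89), and Il4i1 with Ifi30 (0.89), H2-DMb2 (0.86) and Cd40 (0.85), genes of B cells and of antigen presentation. Stat6 went with Apbb1ip (0.86), Diaph1 (0.85) and Btg1 (0.84), and Il4ra with Crlf3 (0.81), Treml2 (0.78) and Satb1 (0.76). The inhibitors had weaker neighbours, Cish with Ccng1 (0.69), Klhdc2 (0.65) and Stat5a (0.63) and Socs1 with Stat5a (0.71), Klhdc2 (0.68) and Thy1 (0.66), so Stat5a and Klhdc2 were among the nearest of both. Nfil3 went with Samsn1 (0.77), Slc2a6 (0.74) and Egr2 (0.68), and Bcl2l1 with Ap3s1 (0.73), Agpat5 (0.73) and Acot7 (0.72).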

How the data were processed

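The deposited files hold whole-number UMI counts per gene and cell, made by the authors with a 3′ droplet kit and not normalized; their processing notes name GRCm38 (mm10), with aligner and counter not given in the sources used here. In the labels, the extraction text speaks of spleen and lymph nodes, the tissue label of spleen. The study filtered cells with Seurat, integrated them with Harmony and merged replicates. Here its filter was applied again (more than 200 UMIs, more than 100 genes, at most 10% mitochondrial UMIs), which kept 83704 of 83967 barcodes. The cells were clustered in batch-centred data (2000 genes without the 8 genes, the pathway genes, immunoglobulin, T cell receptor, ribosomal or mitochondrial genes, 30 components, 20 neighbours, Leiden resolution 1, scanpy 1.11.5), and clusters were named from marker lists with at least 3 detected markers. The rebuilt names may differ from the study's.

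Doublets were marked (0.997% to 2.89% of a library) and kept. UMIs were summed per class and library with at least 20 cells and tested with edgeR 4.0.16 (TMM, filterByExpr, robust glmQLFit and glmQLFTest, Benjamini-Hochberg over all genes, threshold 0.05) in R 4.3.3, with a prior count of 2. DESeq2 1.42.0, other filters, class limits and left-out libraries were alternatives. The labels call the replicate number a batch, and same-numbered libraries deviated together (correlation over genes 0.390 to 0.811 in the 6 sums), so the number pairs them, but the study merged replicates and the block is an alternative. On simulated counts for the total resting sum (12809 genes, 200 changed), 50% of 2-fold and 100% of 4-fold changes were recovered with 11 false calls. The changed genes were all above 20 CPM on average, and no batch difference was simulated. These shares therefore need not hold for the real sum, where same-numbered libraries deviated together (correlation 0.811).

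The members and the lists were chosen with earlier results of these data known. Named are the 8 genes, each pathway gene called, the 2 of smallest p in a list with none, and the 3 most correlated genes (at least 5 CPM on average). One pathway gene that this rule names in 1 sum is not reported here.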

Additional observations from a re-analysis of the deposited data

Results flagged for a closer look

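Bcl2l1 had both cKO libraries on opposite sides of the controls in different cell sums, and the difference between the sums was not tested. In total libraries both cKO libraries were below both controls in resting B-like cells and above them in CD4 T cells, with log2 fold changes 1.71 apart, and in CD8 T cells, 1.5 apart. In YFP+ libraries resting and activated B-like cells were 2.03 apart in the same way. The activated B-like value of 1.76 ran from 0.96 to 2.09 over the other fits, cell filters, clustering and left-out libraries. The comparisons share libraries, and in resting B-like cells the gap between the nearest libraries was under 0.1 scaled CPM. The fold changes there were -0.45 ± 0.34 in total and -0.27 ± 0.34 in YFP+ libraries, and 15.2% and 18.1% of all genes were lower in cKO without overlap in those sums.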

How the results depend on the processing

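Values below are genes called at an adjusted p of 0.05, in the order total resting B-like, YFP+ resting B-like, YFP+ activated B-like, total CD4 T, total CD8 T and total myeloid cells, against 17, 57, 1742, 456, 12 and 0 in the edgeR fit reported above, where 0, 1, 13, 9, 1 and 0 pathway genes were called. With the replicate block for batch, all 6 counts rose, to 2174, 2034, 3479, 3216, 736 and 74 genes and to 18, 12, 18, 22, 6 and 1 pathway genes, and of the pathway calls only that of Ighe in YFP+ activated B-like cells was lost. DESeq2 called 195, 320, 1516, 701, 76 and 5 genes and 5, 6, 12, 11, 3 and 0 pathway genes, and the fit without a filter on low counts called 336, 585, 2411, 1258, 235 and 40 genes and 6, 7, 14, 14, 4 and 4 pathway genes. The cause of these shifts was not tested. Leaving out each library in turn, with the lone sample assumed to vary like the others, gave 91 to 373, 158 to 505, 919 to 2201, 464 to 1193, 46 to 273 and 15 to 88 genes, and 2 to 7, 1 to 7, 9 to 11, 10 to 14, 2 to 5 and 1 to 6 pathway genes. At Leiden resolution 1.5, YFP+ resting B-like cells had 24 and CD8 T cells 30 genes called. Alternatives chosen after seeing the data used fewer or other cells: within resting B cluster 1 the counts were 6 and 10 genes, with 0 and 1 pathway genes (Ighg1 in place of Ighe), CD4 T cells without follicular helper-like cells had 78 genes and 1 pathway gene, naive CD4 T-like cells had 11 and 0 (with Gata3 at -0.058 and Maf at -0.36 in place of a rise), with the unnamed B cluster added activated B-like cells had 1611 genes and 12 pathway genes, without Tyk2, Jak2 and Ptpn6, naive CD8 T-like cells had 6 genes and 1 pathway gene (Ighe, which passed the filter on low counts only through cKO, in place of Maf), and memory-like CD8 T cells had 0 pathway genes. DESeq2 size factors in edgeR, stricter cell filters and marked doublets left out moved no count by over 1.5 times. Of the fold changes of the 8 genes, those of Fcer2a (both resting B-like sums, CD4 and CD8 T), Stat6 (YFP+ resting B-like, CD8 T), Socs1 (CD4 T) and, in myeloid cells, Il4ra, Cish, Nfil3 and Bcl2l1 changed sign with at least 1 library left out, and no sign changed under the other fits, cell filters or clustering. Among the alternatives of fewer or other cells, signs changed within cluster 1 (Il4ra to -0.08 and Stat6 to 0.03, both in total), in CD4 T cells without follicular helper-like or in naive cells (Il4ra to 0.22 and 0.72), in naive (Stat6 to 0.29) and memory-like (Nfil3 from 0.33 to -0.75) CD8 T cells, in conventional dendritic-like cells (Il4ra to -0.03, Fcer2a to -0.01, Cish to -0.34) and in monocyte or macrophage-like cells (Nfil3 to -0.07). Depth limits Bcl2l1, Cish and Nfil3 in control total resting B-like cells, where all 3 were below 4 scaled CPM.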

Other observations

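The Il4 UMIs of YFP+ libraries were few, 50 and 74 in control and 157 and 60 in cKO over all cells. In control they lay mostly in B-lineage cells without plasma cell-like cells (76.0% and 93.2%), and in cKO in CD4 T cells (67.5% and 70.0%).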
